A study of Bos taurus with 8 samples.

Results

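The genes described here are named for the mitochondrial ribosome and for the machines that carry proteins into mitochondria. They were chosen by symbol, as bovine genes whose name is MRPL, MRPS, TIMM or TOMM followed by a number, and 97 such genes were measured among 9866 genes with a symbol on the array. The RefSeq table used for naming lists 102 of them; MRPL36, MRPL40, MRPL55, TIMM17A and TOMM20L matched no probe and were not analysed here. The 97 genes had 161 probes, all of which passed the filter on dim probes, and each gene was represented by its brightest probe. That probe was well above background in all 8 animals for all 97 genes, so none entered through the group in which it was high.

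Mitochondria keep a ribosome of their own, which makes a small set of membrane proteins of the respiratory chain. All of its proteins are encoded in the nucleus, made in the cytosol and imported, so the ribosome depends on the import machines. The TOM complex of the outer membrane receives precursors, the presequence translocase (TIM23) passes those with a cleavable targeting signal through the inner membrane, and the small TIM chaperones hand carrier proteins to a second translocase (TIM22).

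Lung RNA came from 4 cloned Holstein calves and 4 normal Holstein calves, each on 1 array, and every label gives an age of 4 d. The clones carry the disease status respiratory failure, and the series text has them dying of it within that time, with tissue taken after death. The normal calves were healthy and were slaughtered at that age; the donor cells of the clones are not given in the sources used here. All values below are log2 signals relative to the 75th percentile of the same array, and a difference is clone minus normal.

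The 4 clone arrays shared 1 slide and scan and the 4 normal arrays another, so slide and group cannot be told apart. The share of spots well above background was 78.8% to 80.6% in clones and 80.4% to 83.5% in normal animals. No spot was saturated, and all 10 spike-in probes read higher in clones, by a median of 0.67 relative to the same percentile. Of 8 surfactant and lung epithelium markers, 7 were on the array and all were well above background. Their summed signal was 289 to 509 times the 75th percentile in clones, highest in clone 1 and lowest in clone 3. In normal animals it was 350.2 to 390 times. Of 7 heart and skeletal muscle markers, 6 were on the array and 5 passed the filter on dim probes. The summed signal of those 5 was 0.90 to 1.47 times the 75th percentile in clones and 1.46 to 1.59 times in normal animals. MYL2 was above background on no array. In whole lung, fewer cells of a type and less RNA per cell cannot be told apart.

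None of the 97 genes passed limma's test of the clone mean against the normal mean, and their smallest Benjamini-Hochberg adjusted p over all probes was 0.241. Across the array 63 of 35635 probes passed an adjusted p of 0.05, or 0.177%. At an unadjusted p under 0.05 there were 4 of the 97 genes, all higher in clones, against 13.2% of all probes. The same 4 genes, TOMM7, MRPL2, MRPS24 and MRPS33, were higher in every clone than in any normal animal, a pattern that 4.72% of all probes showed; 0 genes had every clone below every normal animal, against 5.39% of probes. The differences were positive for 40 genes and negative for 57, with a median of -0.09 (-0.02 over all genes) and a range from -0.86 to 0.64. Without clone 1, 4 of the 97 genes (4.12%, against 7.20% of all probes) passed the test and all were lower. They were MRPS25 by -1.28, MRPL48 by -0.90, TIMM13 by -0.87 and TIMM8A by -0.83. Clone 1 was the clone above the normal animals for these 4 genes, so leaving it out narrowed the spread among clones. With weights that let arrays differ in quality, 30 genes passed (30.9%, against 32.1% of all probes), 9 higher and 21 lower.

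The clones lay far apart from each other. The median SD over the 97 genes was 0.48 among the 4 clones and 0.08 among the 4 normal animals, and the median range was 1.08 in clones against 0.17 in normal animals. The SD was larger in clones for 94 of 97 genes, or 96.9%; over all genes it was larger for 91.1%, with median SDs of 0.53 in clones, against 0.16 in normal animals. The exceptions were MRPL2, MRPL38 and TOMM22. Spread was therefore wider in the clones over the whole array and not only in these genes.

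The clones departed from the normal animals in different directions. Clone 1 lay above every normal animal for 83 of the 97 genes (85.6%, against 40.0% of all genes). It lay below every one for 4 (4.12%, against 36.8%), TIMM29, MRPL15, MRPS31 and MRPS35. Clone 2 lay below every normal animal for 63 genes (64.9%, against 38.0% of all genes) and above for 22 (22.7%, against 33.8%). Clone 3 was below for 58 (59.8%, against 41.2%) and above for 26 (26.8%, against 39.1%). Clone 4 was below for 61 (62.9%, against 36.1%) and above for 20 (20.6%, against 36.7%). Relative to the normal mean, the median gene stood at 0.38 in clone 1, -0.22 in clone 2, -0.26 in clone 3 and -0.17 in clone 4, while each normal animal against the other 3 had a median between -0.05 and 0.02. Over all genes the same medians were 0.02, -0.03, -0.01 and -0.0036 in clones 1 to 4. With normexp background correction before centring, the medians of all genes lay between -0.25 and -0.11 in the clones; relative to them the 97 genes stood at 0.60 in clone 1, -0.04 in clone 2, -0.01 in clone 3 and -0.01 in clone 4.

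**Figure D1:**
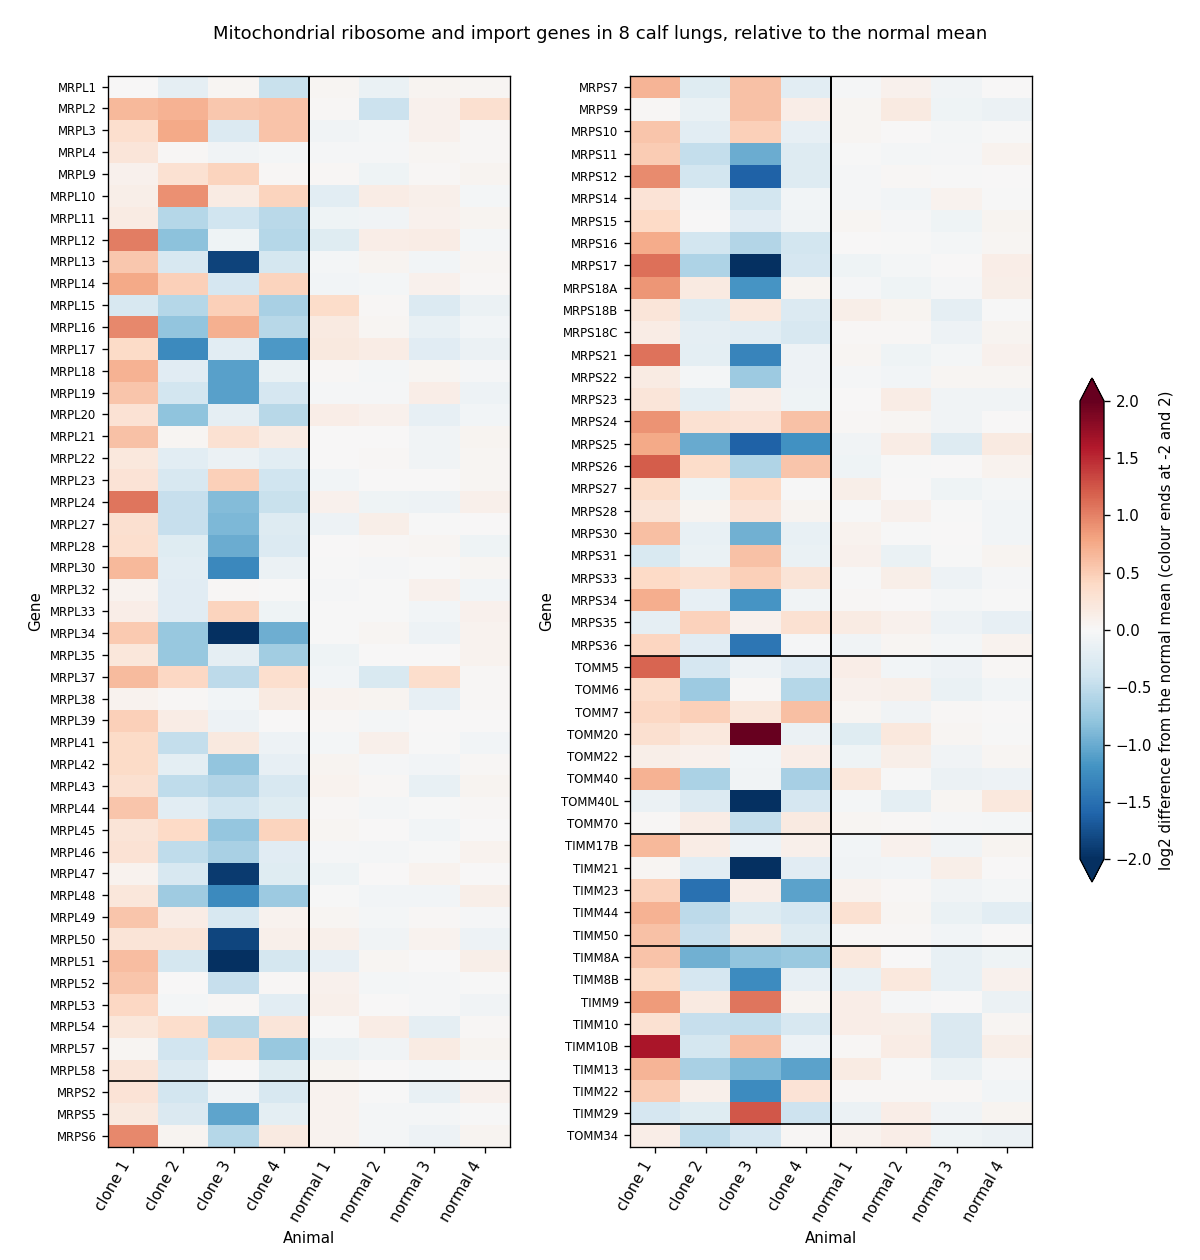
Each row is a gene and each column an animal, the 4 clones left of the 4 normal animals; colour is the log2 difference from the mean of the normal animals, red for higher and blue for lower, and lines separate the large and small ribosomal subunits, the TOM complex, the presequence translocase, the carrier translocase with the small TIM proteins, and TOMM34. The column of clone 1 is mostly red, clones 2 and 4 carry similar, mostly pale blue columns, clone 3 holds the darkest cells, and the normal columns are nearly white.

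Clones 2 and 4 were alike in these genes. Both lay below every normal animal for 57 genes (58.8%, against 29.2% of all genes) and above for 16 (16.5%, against 28.0%). They lay on opposite sides for 0 genes, against 3.22% of all genes. The root mean square difference between them over the 97 genes was 0.18, within the 0.13 to 0.18 of the pairs of normal animals, whereas clones 1 and 3 differed by 1.26 (1.37 over all genes) and the other clone pairs by 0.79 to 0.88. Over all genes, clones 2 and 4 differed by 0.44, beside 0.43 to 0.51 for pairs of normal animals. Clones 1 and 3 were more than 1 apart on the log2 scale for 41 genes (42.3%, against 38.7% of all genes), and clone 1 lay above while clone 3 lay below the normal animals for 54 genes (55.7%, against 17.3% of all genes). Clone 1 had the highest value of the clones for 72 genes (74.2%, against 33.8% of all genes), and clone 3 had the lowest for 53 (54.6%, against 34.2%).

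**Figure D2:**
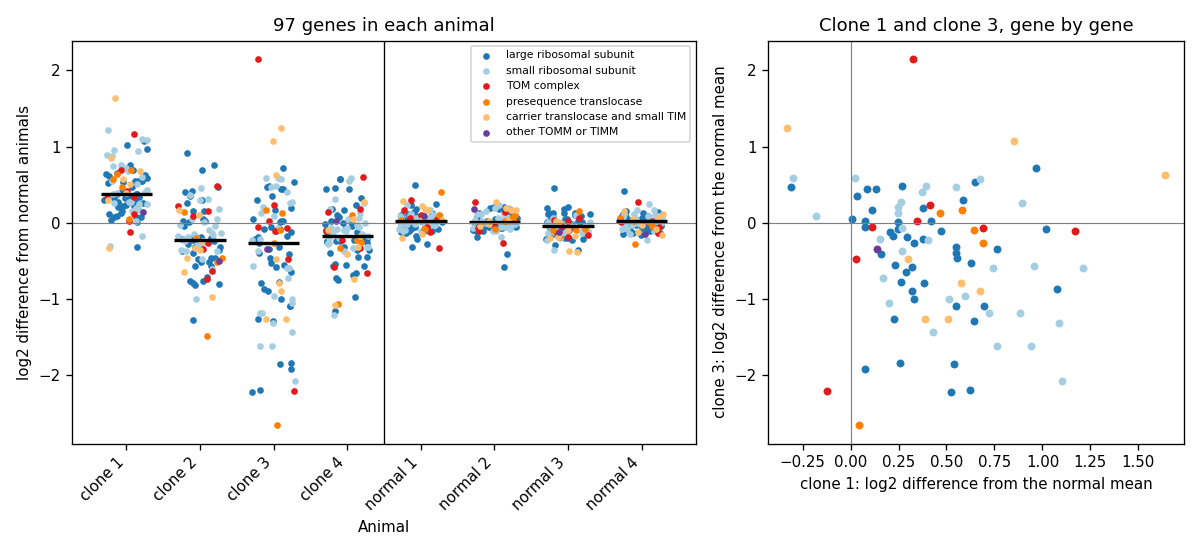
The left panel plots 97 genes in each animal as the log2 difference from the mean of the normal animals (for a normal animal, from the other 3), coloured by role, with a bar at the median; the right panel sets clone 3 against clone 1 gene by gene. The medians are 0.38, -0.22, -0.26 and -0.17 in clones 1 to 4 and near 0 in normal animals, and 54 genes lie above all normal animals in clone 1 and below them in clone 3.

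In the large subunit of the ribosome, 46 genes were measured, with a median difference of -0.10; 18 differences were positive and 28 negative. MRPL2, whose bacterial counterpart lies beside the catalytic centre for peptide bonds, measured 2.78, 2.82, 2.66 and 2.70 in clones 1 to 4, against 2.15, 1.70, 2.22 and 2.44 in normal animals 1 to 4. The clones were close together and all above the normal animals, where animal 2 was the lowest. The difference was 0.61 ± 0.19 (SE, n = 4 each), a 1.53-fold higher mean in clones, with an adjusted p of 0.241 in limma.

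MRPL10, which anchors the stalk that recruits translation factors, measured 2.44, 3.24, 2.50 and 2.77 in clones 1 to 4, against 2.12, 2.48, 2.43 and 2.29 in the normal animals. Clones 1 and 2 set the ends of the clone range, and clone 1 lay within the normal values. Its difference of 0.41 ± 0.22 (SE) had an adjusted p of 0.476 in limma. On a second MRPL10 probe all clones lay above all normal animals, at -0.245 to 0.24 beside -0.79 to -0.255. The difference there was 0.47 (adjusted p = 0.333 in limma). The stalk protein MRPL12, which has also been found bound to the mitochondrial RNA polymerase, measured 0.35, -1.48, -0.75 and -1.23 in clones 1 to 4, against -0.91, -0.53, -0.52 and -0.70 in normal animals. Clone 1 lay above all normal animals and clones 2 and 4 below all of them, and a second MRPL12 probe gave the same order of animals among clones.

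MRPL48, a protein of the central protuberance, measured 0.82, -0.12, -0.67 and -0.14 in clones 1 to 4, against 0.59, 0.55, 0.53 and 0.71 in normal animals 1 to 4. Clone 1 stood above the normal animals and the other 3 clones below them. The difference was -0.62 ± 0.30 (SE; adjusted p = 0.425 in limma). It was -0.90 without clone 1, where the adjusted p was 0.0332 and 7.20% of all probes passed. MRPL34, a small protein of the large subunit, measured 1.34, 0.05, -1.40 and -0.16 in clones against 0.81, 0.85, 0.71 and 0.89 in normal animals. The range among clones was 2.74, or 6.68-fold, beside 0.18 among normal animals, and the difference of -0.86 ± 0.49 (SE) had an adjusted p of 0.510 in limma.

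MRPL51, another large subunit protein, spanned 2.81 among the clones, with 1.75, 0.77, -1.06 and 0.77 in clones 1 to 4, against 0.97, 1.17, 1.13 and 1.24 in normal animals. Averaged over its 3 probes, the range was 1.92. Clone 3 was far below the normal values for MRPL13, MRPL47 and MRPL50, at -0.19, -2.25 and -1.97. The lowest normal values were 1.61, -0.42 and -0.22. Clones 2 and 4 were also below all normal animals, by less, for MRPL13 (1.34 and 1.30) and MRPL47 (-0.65 and -0.57). MRPL50 measured 0.13, 0.14 and -0.02 in clones 1, 2 and 4, so the other clones did not share the low value. For MRPL17, in contrast, clones 2 and 4 were lowest: it measured 3.16, 1.51, 2.57 and 1.63 in clones 1 to 4, against 2.97, 2.93, 2.56 and 2.67 in normal animals. Clone 3 lay within the normal values there.

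Other large subunit genes varied less. MRPL58, which releases peptides from stalled ribosomes, measured 3.43, 2.91, 3.20 and 2.95 in clones 1 to 4, against 3.24, 3.19, 3.15 and 3.17 in normal animals. MRPL38 lay between 2.20 and 2.43 in clones and between 2.08 and 2.32 in normal animals, and MRPL4 lay between 2.67 and 2.99 in clones and between 2.71 and 2.78 in normal animals. The groups overlapped for all 3.

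**Figure D3:**
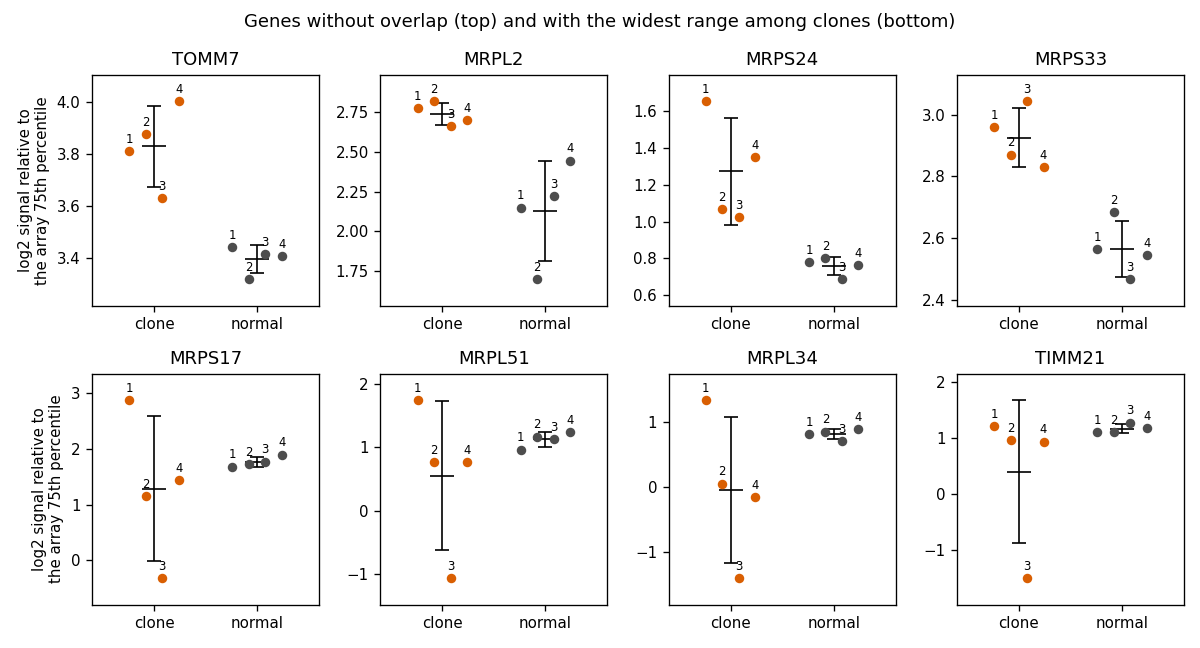
Points are single animals, numbered as in the labels, on a log2 scale relative to the 75th percentile of each array, clones left of normal animals, with the mean and SD of each group (n = 4); each panel has its own axis. In the top row the clones lie above all normal animals (TOMM7, MRPL2, MRPS24, MRPS33), and in the bottom row the clones span 2.70 to 3.18 with clone 1 highest and clone 3 lowest (MRPS17, MRPL51, MRPL34, TIMM21).

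Among the 29 genes named for the small subunit, 13 differences were positive and 16 negative, with a median of -0.02. Of these, MRPS18A and MRPS30 sit in the large subunit in mammalian ribosome structures and were kept here by their names. MRPS36, absent from those structures, was also kept by its name. MRPS24, the counterpart of a bacterial protein at the mRNA entry channel, measured 1.65, 1.07, 1.02 and 1.35 in clones 1 to 4, against 0.78, 0.80, 0.69 and 0.76 in normal animals. All clones lay above the normal animals, and clone 1 was the highest. The difference was 0.52 ± 0.19 (SE, n = 4 each), with an adjusted p of 0.289 in limma.

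MRPS33, which has no bacterial counterpart, measured 2.96, 2.87, 3.04 and 2.83 in clones 1 to 4, against 2.56, 2.68, 2.47 and 2.54 in normal animals. The clones were again all higher and lay within 0.21 of each other. The difference was 0.36 ± 0.15 (SE; adjusted p = 0.357 in limma). One of its 2 other probes likewise had all clones above all normal animals, and the other overlapped, with clone 4 at 1.75 beside 1.76 in normal animal 2.

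MRPS17 had the widest range among clones of the 97 genes. It measured 2.87, 1.16, -0.31 and 1.44 in clones 1 to 4, against 1.68, 1.72, 1.77 and 1.89 in normal animals, so that clone 1 was 9.07-fold above clone 3 while the normal animals spanned 0.21. A second MRPS17 probe measured 2.04, 0.30, -1.19 and 0.49 in clones, against 0.92, 0.84, 1.03 and 1.08 in normal animals. Both probes put clone 1 above and the other clones below all normal animals. MRPS12, the counterpart of a bacterial protein at the decoding centre, showed the same order, with 2.34, 1.03, -0.22 and 1.15 in clones against 1.39, 1.43, 1.39 and 1.41 in normal animals.

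MRPS25, a small subunit protein specific to mitochondria, measured 0.09, -1.67, -2.29 and -1.88 in clones 1 to 4, against -0.74, -0.52, -0.93 and -0.48 in normal animals. Clone 1 was above and the other 3 clones well below the normal animals. Its difference of -0.77 ± 0.47 (SE) had an adjusted p of 0.539 in limma. Without clone 1 the difference was -1.28 and the adjusted p 0.0205, where 7.20% of all probes passed. MRPS5, a protein of the mRNA entry side, measured 1.94, 1.45, 0.68 and 1.54 in clones, against 1.81, 1.70, 1.70 and 1.73 in normal animals. The order of clones was that of MRPS17, and the difference was -0.34 ± 0.26 (SE; adjusted p = 0.640 in limma).

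The 3 relatives named MRPS18 did not share a pattern. MRPS18A measured 1.67, 0.97, -0.39 and 0.85 in clones 1 to 4, against 0.77, 0.71, 0.77 and 0.91 in normal animals. MRPS18B measured 2.43, 1.92, 2.39 and 1.91 in clones, against 2.30, 2.24, 2.01 and 2.17 in normal animals. Clone 3 was thus the lowest animal for MRPS18A and above every normal animal for MRPS18B. MRPS18C lay between 0.54 and 1.01 in clones and between 0.76 and 0.91 in normal animals. MRPS26 measured 4.50, 3.65, 2.69 and 3.84 in clones against 3.20, 3.28, 3.29 and 3.36 in normal animals, with clone 3 alone below. MRPS28 varied little, between 1.95 and 2.17 in clones and between 1.84 and 1.99 in normal animals.

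Across both subunits and the import genes, clone 1 lay above and clones 2, 3 and 4 below every normal animal for 34 of the 97 genes (35.1%, against 7.09% of all genes). These included MRPL24, at 3.75, 2.21, 1.80 and 2.22 in clones 1 to 4 against 2.76, 2.59, 2.57 and 2.77 in normal animals, and MRPS16, at 2.21, 1.10, 0.88 and 1.11 in clones against 1.47, 1.46, 1.43 and 1.51 in normal animals. For 9 genes (9.28%, against 3.96% of all genes) clone 3 alone was below while the other clones were above: TIMM22, TIMM17B, MRPS26, MRPL3, MRPL14, MRPL45, MRPL49, MRPL50 and MRPL54. MRPL3, whose bacterial counterpart reaches the catalytic centre, measured 0.35, 0.78, -0.25 and 0.59 in clones, against -0.06, -0.02, 0.11 and 0.04 in normal animals. Of these 9, MRPL14, MRPL45, MRPL49 and MRPL54 have further probes. Those of MRPL45 gave the same pattern, and those of the other genes did not. On the second MRPL14 probe clones 2 and 4 also lay below the normal animals, at 0.44 and 0.35 beside 0.68 to 0.90. One MRPL49 probe had clone 3 at -1.70, within the normal values of -2.17 to -1.64, and another had clone 4 at -1.24, below all normal animals. The second MRPL54 probe had clones 2, 3 and 4 below.

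For 4 genes clone 1 was low on the brightest probe. MRPL15 measured 0.20, -0.06, 0.98 and -0.14 in clones 1 to 4, against 0.88, 0.53, 0.24 and 0.38 in normal animals, with clone 3 alone above. Its second probe went against this for clone 1, which measured -0.95 there, above the -1.76 to -1.21 of the normal animals. MRPS31 measured -0.82, -0.66, 0.06 and -0.66 in clones, against -0.44, -0.66, -0.53 and -0.47 in normal animals, and here too clone 3 was the highest animal. MRPS35, a small subunit protein specific to mitochondria, measured -2.09, -1.45, -1.83 and -1.60 in clones, against -1.74, -1.82, -2.002 and -2.08 in normal animals. Clone 3 lay within the normal values for MRPS35, and clones 2 and 4 lay above them. Further probes of MRPS31 and MRPS35 did not all repeat the low value: 1 of 2 for MRPS31, and the second for MRPS35, had clone 1 within the normal values. MRPL37, another ribosomal protein without a bacterial counterpart, had the wide normal range of 0.98 to 1.63, beside 0.76 to 1.92 in clones.

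Of the 8 genes of the TOM complex, 4 differences were positive and 4 negative, with a median of 0.02. TOMM7, a small subunit that also holds the kinase PINK1 at the outer membrane, measured 3.81, 3.88, 3.63 and 4.00 in clones 1 to 4, against 3.44, 3.32, 3.42 and 3.41 in normal animals. All clones were higher on this probe, by 0.43 ± 0.16 (SE; adjusted p = 0.287 in limma). A second TOMM7 probe measured 3.15, 3.08, 2.37 and 3.11 in clones, against 2.69, 2.55, 2.65 and 2.75 in normal animals, so that clone 3 was the lowest animal there and the groups overlapped.

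TOMM20, a receptor for precursors with a presequence, measured 2.56, 2.45, 4.38 and 2.12 in clones 1 to 4, against 1.98, 2.44, 2.28 and 2.23 in normal animals. Clone 3 was far above all other animals. A second probe also read highest in clone 3, at 3.18 beside 0.71 to 1.54 in the other clones and 0.99 to 1.18 in normal animals, while the remaining probe read 2.07 in clone 3, within the 1.91 to 2.18 of the normal animals. The probes of TOMM20 therefore disagree, and the difference of 0.64 ± 0.46 (SE) on the brightest had an adjusted p of 0.601 in limma.

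The other receptors varied less. TOMM22, which joins the receptors to the channel, lay between 3.15 and 3.35 in clones and between 3.12 and 3.33 in normal animals. TOMM70, the receptor for carrier proteins, measured 0.83, 0.96, 0.33 and 0.99 in clones 1 to 4, against 0.85, 0.83, 0.78 and 0.76 in normal animals, with clone 3 alone below. The channel protein TOMM40 measured 0.53, -0.80, -0.23 and -0.82 in clones against 0.06, -0.17, -0.28 and -0.27 in normal animals. Clone 1 was the highest and clones 2 and 4 the lowest animals.

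TOMM40L, a relative of the channel, measured 1.02, 0.88, -1.06 and 0.81 in clones 1 to 4, against 1.11, 0.94, 1.18 and 1.35 in normal animals. Clone 3 was far below every other animal on this probe, and the difference was -0.73 ± 0.44 (SE; adjusted p = 0.532 in limma). A second, dimmer TOMM40L probe measured -3.71, -4.32, -4.84 and -4.41 in clones, against -4.26, -4.07, -4.08 and -4.22 in normal animals. There clone 1 lay above and clones 2, 3 and 4 below all normal animals, and the difference was -0.16. The small subunit TOMM5 measured 2.93, 1.43, 1.66 and 1.54 in clones, against 1.90, 1.71, 1.67 and 1.79 in normal animals, with clone 1 far above the rest. TOMM6, another small subunit, measured 4.61, 3.54, 4.30 and 3.69 in clones against 4.35, 4.38, 4.13 and 4.22 in normal animals, where clones 2 and 4 were the lowest. Its difference was -0.23 ± 0.26 (SE; adjusted p = 0.755 in limma).

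**Figure D4:**
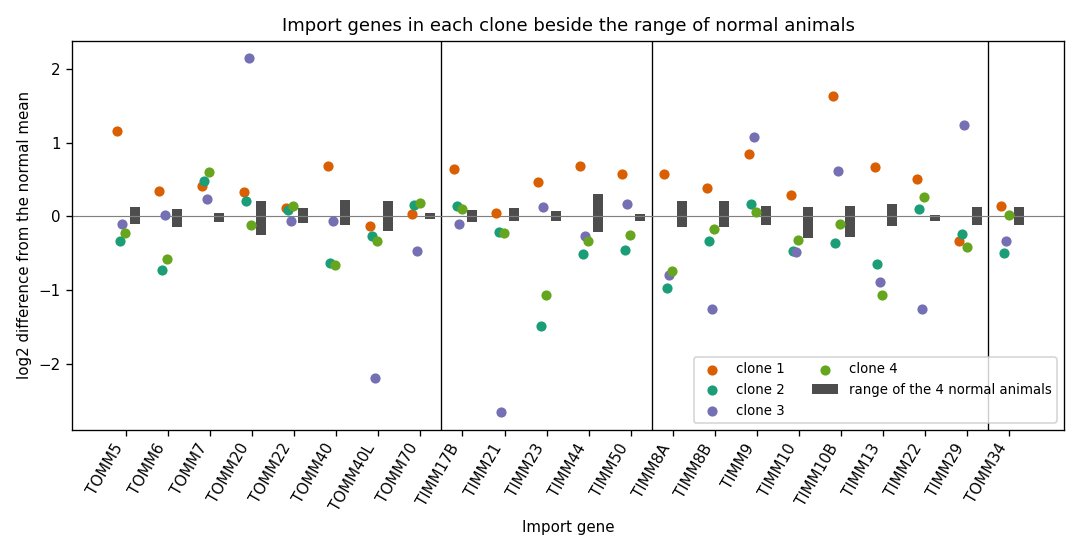
For each import gene, points are the 4 clones as log2 differences from the mean of the normal animals, and the grey bar right of them is the range of the 4 normal animals; vertical lines separate the TOM complex, the presequence translocase, the carrier translocase with the small TIM proteins, and TOMM34. TOMM20 and TIMM29 have clone 3 far above and TOMM40L and TIMM21 have it far below the grey bar, whereas all clones of TOMM22 lie near it.

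The presequence translocase was represented by 5 genes, 2 with positive and 3 with negative differences and a median of -0.10. TIMM23, the core of the channel, measured 2.36, 0.40, 2.02 and 0.82 in clones 1 to 4, against 1.97, 1.92, 1.82 and 1.86 in normal animals. Clones 1 and 3 lay above and clones 2 and 4 far below all normal animals. The difference of -0.49 had an SE of 0.42 and an adjusted p of 0.670 in limma.

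TIMM21, which links the translocase to TOM and to the respiratory chain, measured 1.21, 0.96, -1.49 and 0.94 in clones 1 to 4, against 1.10, 1.10, 1.28 and 1.18 in normal animals. Clone 3 was far below every other animal, and the difference was -0.76 ± 0.55 (SE; adjusted p = 0.610 in limma). The channel partner TIMM17B measured 2.69, 2.19, 1.94 and 2.15 in clones, against 1.99, 2.13, 1.97 and 2.09 in normal animals, a difference of 0.20 ± 0.20 (SE; adjusted p = 0.723 in limma). Clone 3 was the lowest animal for it and clone 1 the highest.

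TIMM44, the anchor of the import motor, measured -0.35, -1.56, -1.30 and -1.37 in clones 1 to 4, against -0.74, -0.997, -1.18 and -1.25 in normal animals. Its difference was -0.10 ± 0.28 (SE; adjusted p = 0.913 in limma) and its sign depended on clone 2, without which it was 0.03. The receptor TIMM50 measured 3.44, 2.40, 3.02 and 2.60 in clones, against 2.89, 2.87, 2.80 and 2.86 in normal animals. As for TIMM23, clones 1 and 3 lay above and clones 2 and 4 below.

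The carrier translocase and the small TIM chaperones comprised 8 genes, 3 with positive and 5 with negative differences and a median of -0.17. TIMM9, which forms the main hexameric chaperone with TIMM10, measured 1.26, 0.58, 1.48 and 0.46 in clones 1 to 4, against 0.54, 0.38, 0.42 and 0.29 in normal animals. Clone 4 alone lay within the normal values. The difference was 0.54 ± 0.26 (SE; adjusted p = 0.423 in limma). Its partner TIMM10 measured 2.40, 1.63, 1.63 and 1.78 in clones, against 2.23, 2.23, 1.81 and 2.14 in normal animals, with clones 2, 3 and 4 below.

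TIMM8A, the gene mutated in human deafness-dystonia syndrome, measured 0.47, -1.07, -0.89 and -0.84 in clones 1 to 4, against 0.11, -0.09, -0.25 and -0.19 in normal animals. Its partner TIMM13 measured 3.95, 2.63, 2.38 and 2.20 in clones, against 3.45, 3.27, 3.15 and 3.25 in normal animals. Both had clone 1 above and the other 3 clones below all normal animals. The differences were -0.48 ± 0.34 (SE; adjusted p = 0.597 in limma) for TIMM8A and -0.49 ± 0.36 (SE; adjusted p = 0.623 in limma) for TIMM13. Without clone 1 the adjusted p was 0.0271 for TIMM8A and 0.0274 for TIMM13, where 7.20% of all probes passed.

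TIMM10B, a small TIM bound to the carrier translocase, measured 1.07, -0.92, 0.06 and -0.67 in clones 1 to 4, against -0.54, -0.42, -0.85 and -0.45 in normal animals. The difference was 0.45 ± 0.41 (SE; adjusted p = 0.693 in limma), and it was 0.06 without clone 1 and -0.18 with array weights. The channel TIMM22 measured 1.21, 0.81, -0.55 and 0.98 in clones, against 0.73, 0.73, 0.72 and 0.65 in normal animals. Clone 3 alone was below. TIMM29, a subunit of the same translocase, ran the other way, with -3.10, -3.01, -1.53 and -3.18 in clones, against -2.88, -2.64, -2.84 and -2.72 in normal animals. Clone 3 alone was above.

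TIMM8B, a relative of TIMM8A, measured 2.37, 1.65, 0.73 and 1.81 in clones 1 to 4, against 1.84, 2.19, 1.84 and 2.06 in normal animals. Clone 3 was the lowest. TOMM34, a cytosolic co-chaperone outside the TOM complex, measured 1.37, 0.73, 0.89 and 1.26 in clones, against 1.30, 1.37, 1.14 and 1.12 in normal animals, a difference of -0.17 ± 0.20 (SE; adjusted p = 0.766 in limma).

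For 48 of the 97 genes there were at least 2 probes. The probes of a gene all had the same sign relative to the normal mean for 39 genes in clone 1, 39 in clone 2, 41 in clone 3 and 38 in clone 4, with median spreads between probes of 0.11 to 0.21. The widest gap in clones 2 and 4 was that of MRPL54, whose brightest probe measured 1.83, 1.95, 1.05 and 1.84 in clones 1 to 4, against 1.59, 1.75, 1.43 and 1.62 in normal animals. Its second probe measured 0.34, -1.90, -1.18 and -2.09 in clones, against 0.19, 0.55, 0.19 and 0.20 in normal animals. The brightest probe thus has clones 2 and 4 above, and the second has them far below. MRPS21 was split in clone 1, at 1.89 on its brightest probe, above the 0.73 to 0.89 of the normal animals, and below them on both others. In clone 3 the widest gap was that of MRPL19, at 0.23 on the brightest probe, beside 1.23 to 1.46 in normal animals, and at -3.23 on another, beside 0.32 to 0.36 in normal animals.

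**Figure D5:**
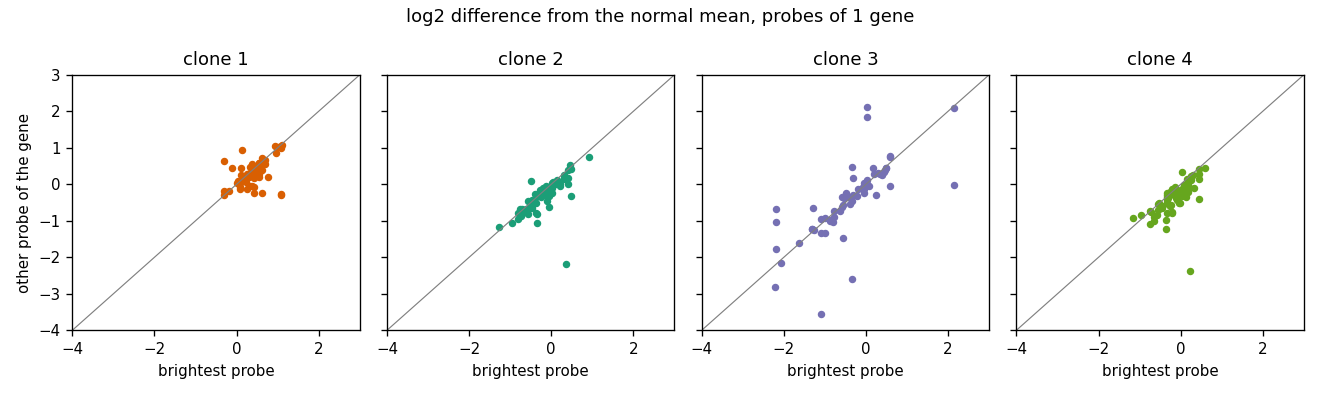
Each point is a further probe of a gene set against its brightest probe, as the log2 difference of 1 clone from the mean of the normal animals, with the line of equal values; the 4 panels are clones 1 to 4 and cover the 48 genes with at least 2 probes. Most points lie near the line, and the point farthest from it in the panels of clones 2 and 4 is MRPL54.

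Other genes of mitochondria were read from lists of 103 symbols, of which 81 were measured. The lists cover mitochondrial translation, ribosome assembly and import, and also mitochondrial DNA and transcription, regulators of mitochondrial content, and the genes CS and VDAC1 to VDAC3. Of the 81 genes, 0 passed the test, against 0.177% of all probes. Only 1 had an unadjusted p under 0.05 in limma, against 13.2% of all probes. It was the outer membrane channel VDAC2, at 4.00, 3.74, 3.83 and 3.58 in clones 1 to 4 against 3.35, 3.29, 3.40 and 3.52 in normal animals (difference 0.40, adjusted p = 0.350 in limma). The median difference over the 81 genes was -0.04. Relative to the normal mean, their median was 0.30 in clone 1, 0.02 in clone 2, -0.23 in clone 3 and 0.03 in clone 4. The lists within these 81 genes went different ways in clones 2 and 4, as the next ones show.

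The list of mitochondrial tRNA synthetases, which charge the tRNAs that the mitochondrial ribosome uses, set clone 3 apart from the other clones. The list also holds QRSL1, GATB and GATC, which are subunits of an amidotransferase and not synthetases. Of the 14 genes measured in it, 12 lay below every normal animal in clone 3 (85.7%, against 41.2% of all genes). Above every normal animal lay 10 in clone 1 (71.4%, against 40.0%), 8 in clone 2 (57.1%, against 33.8%) and 8 in clone 4 (57.1%, against 36.7%). The medians were 0.40, 0.21, -0.84 and 0.25 in clones 1 to 4. WARS2, the synthetase for tryptophan, measured -0.39, 0.12, -1.13 and -0.12 in clones, against -0.69, -0.84, -0.73 and -0.77 in normal animals. The 18 genes of the import motor, sorting, processing and folding had medians of 0.33, -0.29, -0.01 and -0.27, near those of the ribosome and import genes except in clone 3. The 5 ribosomal proteins under other symbols differed among themselves. GADD45GIP1 measured 1.88, 1.98, 1.29 and 2.06 in clones, against 1.47, 1.45, 1.25 and 1.35 in normal animals, with clones 1, 2 and 4 above. DAP3 measured 0.47, -0.92, -1.24 and -1.04 in clones, against -0.16, -0.28, -0.39 and -0.43 in normal animals. AURKAIP1 likewise had clone 1 above and the other 3 clones below all normal animals, whereas CHCHD1 had clone 1 below them.

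Markers of other cells also differed from clone to clone. The median of 8 measured genes of cycling cells, of 11 listed, was 4.32, 1.67, 0.54 and 2.37 above the normal mean in clones 1 to 4, and their summed signal was 6.63 to 23.5 times the 75th percentile in clones, highest in clone 1, against 4.84 to 6.49 in normal animals. All 5 erythroid markers were measured, with sums of 18.1 to 168 in clones, again highest in clone 1, and 14.6 to 55.1 in normal animals. Of 8 macrophage markers 5 were measured, with sums of 47.6 to 202 in clones, of which clones 1, 2 and 4 lay below the 162 to 246 of the normal animals. The 5 measured endothelial markers, of 6 listed, had sums of 39.8 to 218 in clones, lowest in clone 1 and highest in clone 3, and 91.1 to 118 in normal animals. The 6 fibroblast markers had sums of 102 to 163 in clones, of which clones 1, 2 and 4 lay above the 77.4 to 106 of normal animals. For the 6 measured neutrophil markers, of 7 listed, the sum was 89.3 in clone 1. It was 13.4 to 31.2 in the other clones and 22.9 to 34.1 in normal animals. Lists for alveolar type I, airway secretory, ciliated, smooth muscle, and T and B cells were also read and are not given here. No measured marker in the lists given in this paragraph was below background on all arrays. The part of these markers in the values of the ribosome and import genes was not tested.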

How the data were processed

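Lung RNA of 4 cloned and 4 normal calves was measured on 1-colour (Cy3) Agilent bovine arrays. Groups and replicate numbers came from the sample titles, and each label names a separate calf. Per the file headers, the deposited processed intensity of each spot was background-subtracted by Agilent Feature Extraction and was not normalized between arrays; the submitters' processing notes give version 10.7. Other deposited columns were flags for spots well above background, saturated or outlying. The authors' deposited value table holds log2 values that follow the log2 processed signal of the same array (r of 0.999 or more). Every column has a 75th percentile of 10.54. The table served only as an alternative. Its results were nearly those of quantile normalization, with 60 probes called and 30 of the 97 differences positive under each. It is therefore not a separate check beside quantile normalization.

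Control spots and outlier spots (2 to 21 of 43803 per array) were left out. From the log2 of the processed signal, the 75th percentile of its array was subtracted, and spots of a probe were averaged. Of 43653 probes, 35635 were well above background on at least 4 of 8 arrays and were kept. Accessions were matched without versions to bovine RefSeq genes on ARS-UCD2.0, which named 20740 kept probes. The array design names the build Btau_3.1, so no coordinates are given. Of several kept probes of a gene, the one with the highest mean stood for it.

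Clones were set against normal animals by limma 3.58.1 under R 4.3.3 (lmFit and eBayes, 2-sided, group as the sole term), with Benjamini-Hochberg adjustment over all kept probes and a threshold of 0.05. Precision is limited by the 4 arrays a group and by the spread among clones. Comparisons over all genes used 9855 genes without a missing value.

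The genes, related lists and markers were chosen with earlier results of these data known. Genes named singly were those with the smallest p in each role, most TOM and TIM genes, the MRPS18 relatives and a few other ribosomal proteins whatever their p, and the genes with the widest range among clones. Among related lists, up to 3 genes with the smallest p were eligible. CHCHD1, MRPL1, MRPL3, MRPL4, MRPL13, MRPL14, MRPL17, MRPL19, MRPL24, MRPL38, MRPL45, MRPL47, MRPL49, MRPL50, MRPL54, MRPS12, MRPS16, MRPS21, MRPS30, MRPS31, MRPS35 and TIMM29 were added after their values were seen. Alternatives were other scalings, background corrections, filters and fits, the mean of all probes, and leaving out each animal.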

Additional observations from a re-analysis of the deposited data

Results flagged for a closer look

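In 11 of 194 groups of 4 animals, 1 animal lay far from the other 3 by Dixon's test. Chance alone marks about 1 group in 20, so this count is near that rate. The groups reuse the same animals and are not independent, and the share over all genes was not computed. Of the 11, 9 were among clones and 2 among normal animals. Clone 3 was the distant animal for 6 genes. It was low for TIMM21 at -1.49, TOMM40L at -1.06, MRPL50 at -1.97, MRPL45 at 0.48 and MRPL54 at 1.05, and high for TIMM29 at -1.53 (all log2 relative to the 75th percentile). Clone 1 was high for TOMM5 at 2.93, MRPS16 at 2.21 and TIMM8A at 0.47. Among the normal animals, animal 4 was low for TIMM22 at 0.65 and animal 2 for MRPL1 at -2.28.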

How the results depend on the processing

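Over 19 alternatives, 382 values of 21 single genes kept their direction and side of the threshold, 15 passed it, and 2 turned sign. All 15 came with array weights, where 32.1% of all probes passed, or without clone 1, where 7.20% did. The sign turned for TIMM10B, at -0.18 with array weights, and for TIMM44, from -0.37 to 0.033 over single animals left out. The number of genes past the threshold was 30 with array weights and 0 to 4 over animals left out. The median difference was -0.18 with array weights and from -0.24 (without clone 1) to 0.0075 (without clone 3) over animals left out. Clone 1 lay below every normal animal for 2 genes with median centring or with normexp and quantile normalization, clone 3 above for 17 in the authors' table and 16 with normexp and quantile normalization, and clone 4 below for 39 with normexp and the 75th percentile. The cause was not tested. Probes called over the whole array numbered 63, against 60 with quantile normalization or the authors' table, 64 with median centring, 0 with normexp and the 75th percentile, 25 with normexp and quantile normalization, 68 without a filter, 17 with a filter on all 8 arrays, 146 with trend and robust settings and 17 to 2565 over animals left out. With array weights 11452 probes were called. With 0 called under normexp and the 75th percentile in limma, 4 of the 97 genes had an unadjusted p under 0.05. Clones and normal animals share replicate numbers only: same-numbered residuals correlated between -0.20 and 0.10, and with the number as a block 0 of the 97 genes and 13 probes passed. Normexp used the median spot signal, the foreground column in these files. Clones lie on 1 slide and normal animals on another.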
